A study of Mus musculus with 6 samples.

Results

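The miR-99/100 and miR-125 families are encoded together in 3 mouse gene clusters, and the deposited table of small RNA sequencing held 7 rows for them: mmu-miR-99a, mmu-miR-99b, mmu-miR-100, mmu-miR-125a-5p, mmu-miR-125b-5p, mmu-miR-125b-3p and mmu-miR-125b*, written without the species prefix from here on. They were taken by name from the 698 miRNA rows, and all 7 were among the 193 rows that were tested, those averaging 10 RPM or more over the 6 libraries (RPM, reads per 1000000 reads counted for miRNAs). The tissue was the left ventricle of aged mice, more than 50 weeks old. The 3 HCM mutant mice had the genotype aMHC403/+, with the R403Q change in Myh6, the gene of a cardiac myosin heavy chain, and the 3 WT mice were of the same age class. The titles call the 3 libraries of each genotype biological replicates; the sources used here do not give strain, sex or litter.

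MicroRNAs are cut as a pair of strands from a hairpin precursor, and the seed, bases 2 to 8 from the 5′ end, does most of the pairing with target messenger RNAs. The miR-125 family is the mammalian counterpart of lin-4 of Caenorhabditis elegans, and in animals as distant as flies a member of the miR-99/100 family and a miR-125 lie in one transcription unit with a let-7. In mammals miR-99/100 is best known for repressing Mtor, the kinase of a growth-control pathway, and miR-125b for roles in blood stem cells, apoptosis and fibroblast activation. An asterisk in the older nomenclature of the table marks the less abundant strand.

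The mature sequences below, from RefSeq (GRCm38.p6), were the same, base for base, as the deposited ones for all 7 rows (with U for T); they are shown because the seed groups the families and because near-identity limits which reads can be told apart. Capitals mark the seed.
miR-99a: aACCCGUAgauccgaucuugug
miR-100: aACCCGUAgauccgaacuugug
miR-99b: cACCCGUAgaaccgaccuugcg
miR-125b-5p: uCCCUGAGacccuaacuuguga
miR-125a-5p: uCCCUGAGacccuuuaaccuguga
miR-125b-3p: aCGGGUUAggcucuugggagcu
miR-125b*: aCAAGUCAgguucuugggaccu

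miR-99a, miR-100 and miR-99b shared 1 seed. miR-100 differed from miR-99a by the single substitution U16A, counted from 1 at the 5′ end with the base of miR-99a first, so that a read with 1 mismatch could be counted for the other; the sources used here do not give the mismatches allowed in counting. miR-99b differed from miR-99a by A1C, U11A, U16C and U21C. miR-125b-5p and miR-125a-5p shared a seed and their first 13 bases, and were 22 and 24 bases long. The remaining rows were 3′ arms with seeds of their own, and miR-125b* and miR-125b-3p differed at 5 of 22 positions.

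On chromosome 16, miR-99a lay at chr16:77598940-77598961, and miR-125b* at chr16:77646318-77646339 in the Mir125b-2 precursor; 47.3 kb separated the precursors Mir99a and Mir125b-2, with Mirlet7c-1 between them, all in introns of the noncoding gene Mir99ahg (host genes from GENCODE M21). On chromosome 9, miR-100 lay at chr9:41531437-41531458 and miR-125b-3p at chr9:41581980-41582001 in the Mir125b-1 precursor; 50.4 kb separated Mir100 and Mir125b-1, with Mirlet7a-2 between them, in introns of the noncoding gene 3110039I08Rik. Mir125b-1 also overlapped an exon of the noncoding Gm28119, and Mir100 an exon of Gm48742 on the opposite strand. On chromosome 17 the cluster was compact: miR-99b lay at chr17:17830194-17830215 in an intron of the protein-coding gene Spaca6, and miR-125a-5p at chr17:17830817-17830840 in a precursor that overlapped a Spaca6 exon, with 554 bases between Mir99b and Mir125a and Mirlet7e between them. All precursors were on the plus strand. The sequence of miR-125b-5p occurred in both Mir125b precursors, at chr9:41581940-41581961 and chr16:77646279-77646300, so its reads cannot be assigned to a locus, whereas each 3′ arm named one. The Mir125b-1 hairpin, which holds miR-125b-5p and miR-125b-3p, is shown with both arms in capitals (RefSeq, GRCm38.p6, plus strand, chr9:41581926-41582002).
Mir125b-1: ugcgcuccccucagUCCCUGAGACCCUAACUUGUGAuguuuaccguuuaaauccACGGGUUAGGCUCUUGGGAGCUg

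The libraries held 2483486 to 4267939 miRNA reads in the mutants and 3647223 to 5223636 in WT, so that 1 read was worth 0.191 to 0.403 RPM. In the ventricle of both groups heart muscle miRNAs dominated: the 6 listed (miR-1, miR-133a, miR-133b, miR-208a, miR-208b and miR-499) summed to 400920 to 463232 RPM in the mutants and 425038 to 503987 RPM in WT. Within that list 5 were tested, of which 2 had differences above 0 and 1 passed. This was miR-208b, higher in the mutant, at 14522, 17711 and 21523 RPM against 11031, 11795 and 11541 RPM in WT (limma adjusted p = 0.0282). miR-499 lay below WT in every mutant and missed the threshold (log2 difference −0.55, limma adjusted p = 0.0559). miR-1, the most abundant miRNA, stood at 265661, 249195 and 202711 RPM in the mutants and 325317, 255310 and 300097 RPM in WT. Its groups overlapped (log2 difference −0.30, limma adjusted p = 0.209). The Myh6 change cannot be checked in miRNA reads. Across the 193 tested miRNAs, 10 were higher and 0 lower in the mutant (limma on log2(RPM + 1), Benjamini-Hochberg adjusted p under 0.05). At an unadjusted p under 0.05, limma had 38 higher and 4 lower, edgeR 33 and 14, and DESeq2 22 and 18. At an adjusted p under 0.05, edgeR called 8 higher and 1 lower, and DESeq2 8 and 4. A value in RPM depends on how many reads the other miRNAs take, and the median log2 difference of the tested miRNAs was 0.15, with 71.0% above 0. After median-of-ratios scaling, which sets that median near 0 by design, it was −0.02.

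Together the 7 miRNAs held 10.3%, 9.38% and 10.6% of the miRNA reads in the mutants, against 8.79%, 9.24% and 7.61% in WT. The miR-99/100 family summed to 54504, 44686 and 47864 RPM in the mutants and 48614, 45876 and 36058 RPM in WT, and the groups overlapped. The miR-125 major arms, miR-125a-5p and miR-125b-5p, summed to 48280, 48848 and 57532 RPM in the mutants and 39163, 46353 and 39946 RPM in WT. In RPM every mutant sum lay above every WT sum, though not after median-of-ratios scaling. The 2 families thus stood at nearly the same level: the miR-125 sum was 0.886, 1.09 and 1.20 times the miR-99/100 sum in the mutants and 0.806, 1.01 and 1.11 times in WT, and these ratios overlapped.

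Each family was carried by 1 or 2 members. miR-99a made up 79.4% ± 1.51 (SD, n = 3) of the miR-99/100 sum in the mutants and 81.4% ± 0.199 (n = 3) in WT, miR-100 made up 20.3% ± 1.49 and 18.3% ± 0.197, and miR-99b 0.275% ± 0.0251 and 0.259% ± 0.0438. miR-125b-5p made up 98.5% ± 0.0992 of the miR-125 major arms in the mutants and 98.6% ± 0.119 in WT. By mean RPM over the 6 libraries miR-125b-5p ranked 5 among the miRNAs of the table and miR-99a 7, followed by miR-100 at 23, miR-125a-5p at 52, miR-125b* at 93, miR-99b at 99 and miR-125b-3p at 171. Within this order, miR-125b* and miR-99b overlapped in both genotypes; miR-125b-5p and miR-99a overlapped in WT, while every mutant value of miR-125b-5p lay above every mutant value of miR-99a. The mature sequences were 22 to 24 bases long, so no length correction was made. The sources used here do not give the lengths of the reads counted. Capture in the library differs between miRNA sequences, so the order is one of reads.

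**Figure D1:**
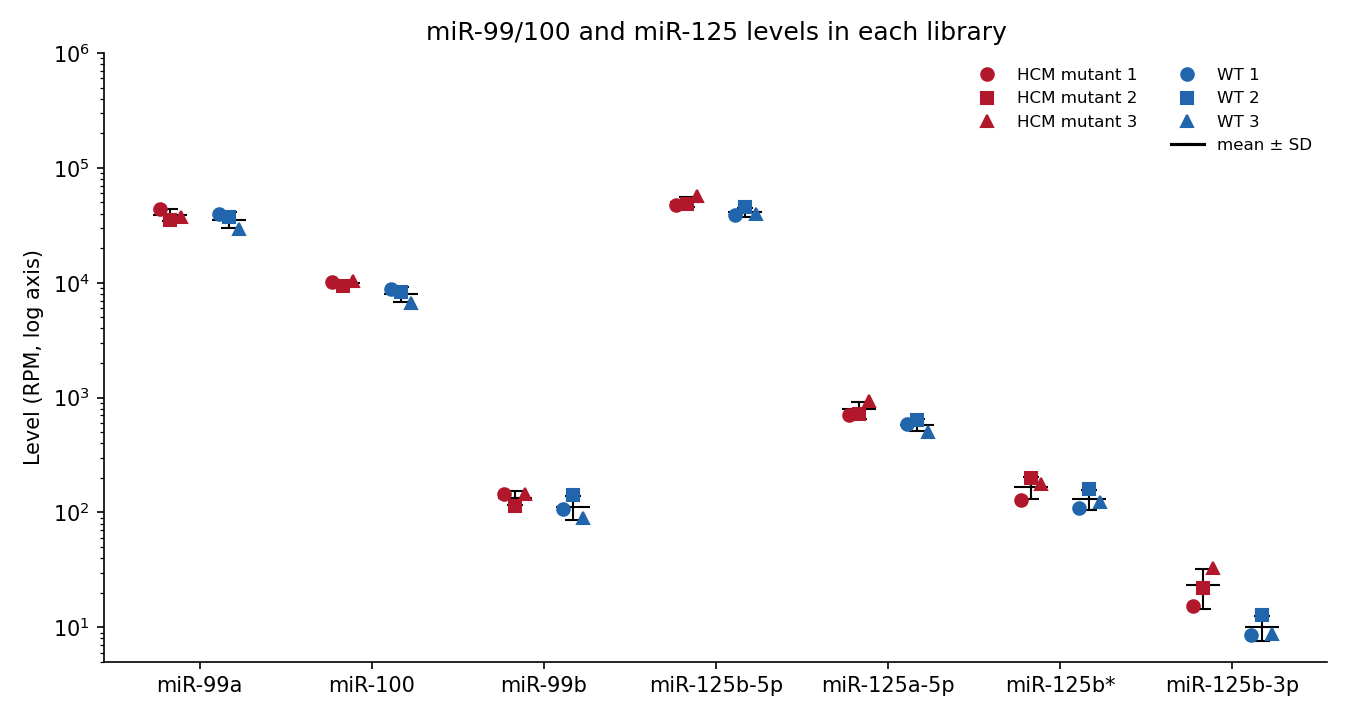
Level of each miRNA in RPM (log axis) in each library, HCM mutant (red) left of WT (blue), with the marker shape giving the replicate number and black bars the mean ± SD of 3 libraries. The 7 miRNAs span from about 46002 RPM for miR-125b-5p to 16.8 RPM for miR-125b-3p (mean of 6 libraries), and the mutant and WT points lie close together in all but miR-125b-3p.

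In the mutant ventricle, 1 of the 7, miR-125b-3p, passed the test as higher, where 5.18% of all tested miRNAs did. All 7 had log2 differences above 0 (6 of 7 after median-of-ratios scaling and with DESeq2), where 71.0% of all tested miRNAs did (93 of 193 after median-of-ratios scaling and 91 of 193 with DESeq2), with a median of 0.32 beside 0.15 for all tested. For 4 of them (miR-100, miR-125a-5p, miR-125b-5p and miR-125b-3p) every mutant lay above every WT library, where 18.1% of all tested miRNAs showed this, and none lay below WT in all 3 mutants, where 2.59% did. That number depended on the scaling: it was 3 with TMM scaling and when the 5 most abundant miRNAs were kept out of the library totals, and 1, miR-125b-3p, after median-of-ratios scaling (alternatives chosen after seeing the data), where 17.1%, 12.4% and 13.0% of all tested miRNAs did so. These are whole-ventricle samples, in which a higher share of a cell type and more of a miRNA per cell cannot be told apart.

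In the miR-99/100 family, miR-100 was the one with separate groups in RPM; it overlapped after TMM and median-of-ratios scaling and with library totals free of the 5 most abundant miRNAs. It stood at 10144, 9336 and 10255 RPM in the mutants and 8842, 8365 and 6689 RPM in WT. All 3 mutants were above the highest WT library, with WT replicate 3 the lowest. At a log2 difference of RPM + 1 of 0.32 ± 0.18 (SE; 95% interval −0.04 to 0.69), miR-100 missed the threshold (limma adjusted p = 0.297).

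miR-99a, the most abundant of the family, stood at 44215, 35236 and 37463 RPM in the mutants and 39665, 37370 and 29280 RPM in WT. The groups overlapped, and mutant replicate 2 lay below 2 of the 3 WT libraries. Its log2 difference of 0.14 ± 0.16 (limma adjusted p = 0.655; 95% interval −0.19 to 0.48) lay 0.01 below the median of all tested miRNAs, and its sign turned after median-of-ratios scaling (−0.041) and with DESeq2 (−0.049). miR-99b, of the compact chromosome 17 cluster, stood at 145, 115 and 145 RPM in the mutants and 107, 141 and 89.8 RPM in WT. The groups overlapped here too, at a log2 difference of 0.28 ± 0.24 (limma adjusted p = 0.521; 95% interval −0.22 to 0.77).

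Among the miR-125 major arms, miR-125b-5p stood at 47577, 48126 and 56589 RPM in the mutants and 38573, 45708 and 39440 RPM in WT. Mutant replicate 3 was the highest, and WT replicate 2 lay close under the mutants. The log2 difference was 0.30 ± 0.16 (95% interval −0.02 to 0.62) and did not pass (limma adjusted p = 0.273). miR-125a-5p, which shares its seed, stood at 704, 722 and 943 RPM in the mutants and 590, 644 and 507 RPM in WT. Again mutant replicate 3 was the highest, and the groups did not overlap in RPM. After median-of-ratios scaling the groups overlapped for both miR-125b-5p and miR-125a-5p. The log2 difference of miR-125a-5p, 0.44 ± 0.22, had a limma adjusted p of 0.232, above the threshold (95% interval −0.0036 to 0.88).

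Relative to the median of all tested miRNAs, these 5 major arms differed by −0.01 (miR-99a), 0.12 (miR-99b), 0.17 (miR-100), 0.15 (miR-125b-5p) and 0.28 (miR-125a-5p) on the log2 scale. After median-of-ratios scaling the distances from the median were −0.02, 0.12, 0.17, 0.14 and 0.28 in the same order of miRNAs.

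**Figure D2:**
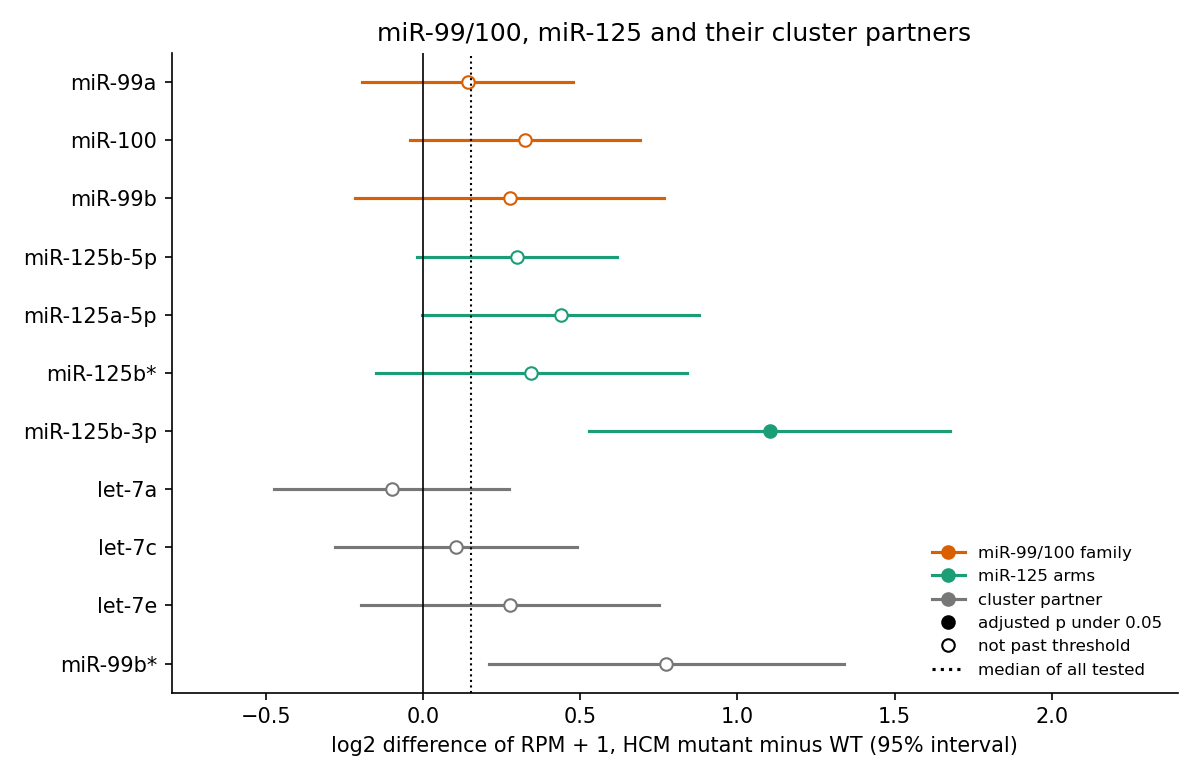
log2 difference of RPM + 1, HCM mutant minus WT (horizontal axis), with limma's 95% interval for the 7 miRNAs and the 4 cluster partners that were tested; filled points passed at an adjusted p under 0.05, and the dotted line is the median of all tested miRNAs at 0.15. The interval of miR-125b-3p, from 0.53 to 1.68, lies to the right of that line, those of the other 6 cross 0, and that of the partner miR-99b* begins at 0.21.

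miR-125b-3p, the 3′ arm of Mir125b-1, was the least abundant of the 7 and had the largest difference among them. It stood at 15.5, 21.9 and 33.0 RPM in the mutants and 8.50, 12.9 and 8.81 RPM in WT. Every mutant lay above every WT library; mutant replicate 3 was the highest and mutant replicate 1 lay close to WT replicate 2. Mean levels were 23.5 ± 8.88 RPM in the mutants and 10.1 ± 2.46 RPM in WT (SD, n = 3 each), 2.33 times as high in the mutant. The log2 difference of 1.10 ± 0.28 (limma adjusted p = 0.0123; 95% interval 0.53 to 1.68) was the sixth largest of the 193, or 0.95 above the median of all tested miRNAs and 0.96 above it after median-of-ratios scaling.

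Few reads stood behind these values: 66, 91 and 82 in the mutants and 31, 48 and 46 in WT. The 95% Wilson intervals, which cover counting error only, were 12.2 to 19.7 RPM for mutant replicate 1, the lowest mutant, and 9.73 to 17.1 RPM for WT replicate 2, the highest WT library, so that these overlapped. For mutant replicate 3 the interval was 26.6 to 41.0 RPM. On the whole reads recovered from the RPM steps the difference was 1.10 with edgeR's quasi-likelihood test (adjusted p = 0.0470) and 1.04 with DESeq2 (adjusted p = 0.0351). With each of these tools miR-125b-3p was the 1 called of the 7, where 4.15% of all tested miRNAs were called higher.

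The call was lost in 7 of the 18 other settings in which miR-125b-3p was tested, with the difference between 0.71 and 1.36 and the adjusted p between 2.36e-04 and 0.213 over the 18. The adjusted p was 0.0746 after median-of-ratios scaling, 0.0682 with TMM, 0.0678 with library totals free of the 5 most abundant miRNAs and 0.0741 without a filter, where 478 miRNAs were tested (limma). Without mutant replicate 3 the difference was 0.83 (limma adjusted p = 0.213), without WT replicate 3 it was 1.03 (limma adjusted p = 0.159), and without WT replicate 1 the limma adjusted p was 0.0547.

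**Figure D3:**
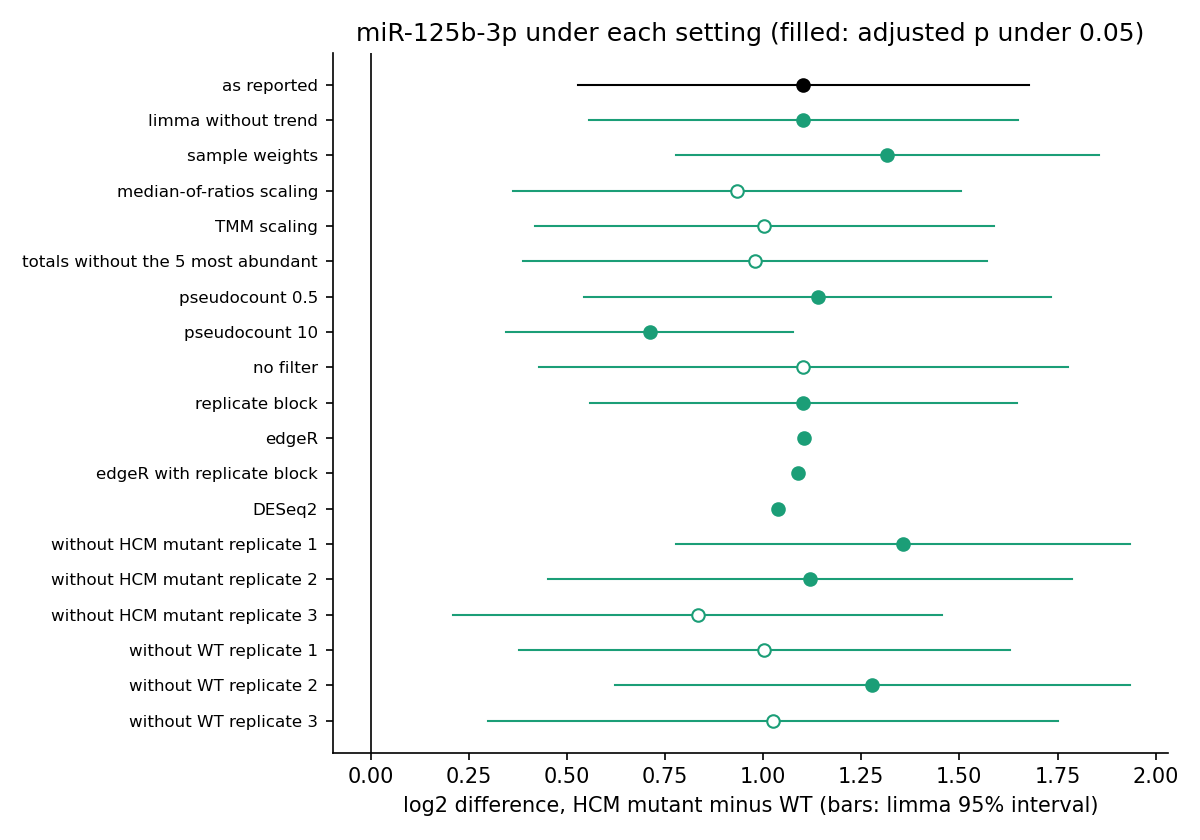
log2 difference of miR-125b-3p, HCM mutant minus WT (horizontal axis), as reported (black) and under each of the 18 other settings (green), with bars for limma's 95% interval and filled points for an adjusted p under 0.05; edgeR and DESeq2 points have no bar. The points lie between 0.71 with a pseudocount of 10 RPM and 1.36 without mutant replicate 1, and 11 of the 18 are filled.

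miR-125b*, the 3′ arm of the other precursor, Mir125b-2, was more abundant in every library and did not pass. It stood at 128, 199 and 177 RPM in the mutants and 110, 161 and 124 RPM in WT. The groups overlapped, with WT replicate 2 above mutant replicate 1. Its log2 difference was 0.34 ± 0.24 (limma adjusted p = 0.435; 95% interval −0.15 to 0.84), from 440 to 825 reads per mutant library and 400 to 649 per WT library.

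The arms were compared within each library, where scaling has no part in the percentages given. The tested differences were of log2(RPM + 1), which shrinks changes at low levels such as those of miR-125b-3p. For miR-125b-3p against miR-125b-5p the difference was 0.84 with a pseudocount of 0.5 RPM and 0.41 with 10 RPM. miR-125b-3p amounted to 0.0325%, 0.0455% and 0.0583% of miR-125b-5p in the mutants and 0.0220%, 0.0282% and 0.0223% in WT. Every mutant ratio was above every WT ratio, with a difference of 0.80 on the log2 scale (two-sided exact permutation test p = 0.1, the smallest that 3 against 3 libraries allow; adjusted over 10 ratios, 0.333). miR-125b* amounted to 0.269%, 0.413% and 0.313% of miR-125b-5p in the mutants and 0.284%, 0.352% and 0.315% in WT, which overlapped (difference 0.05, exact permutation p = 0.9, adjusted 0.9). Reads of miR-125b-5p, the denominator of both ratios, come from both precursors.

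The 3′ arms can be set against each other directly, since each comes from 1 precursor. miR-125b-3p amounted to 12.1%, 11.0% and 18.6% of miR-125b* in the mutants and 7.75%, 8.03% and 7.09% in WT. The WT ratios were within 1 percentage point of each other and below every mutant ratio. The difference was 0.76 on the log2 scale (exact permutation p = 0.1, the smallest possible; adjusted 0.333). As a share of the reads of both 3′ arms, miR-125b-3p made up 10.8% (95% Wilson interval 8.55 to 13.5), 9.93% (8.16 to 12.0) and 15.7% (12.8 to 19.1) in the mutants and 7.19%, 7.43% (5.65 to 9.71) and 6.62% in WT. The interval of mutant replicate 3 lay above the intervals of all WT libraries, and those of the other 2 mutants overlapped with WT intervals.

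**Figure D4:**
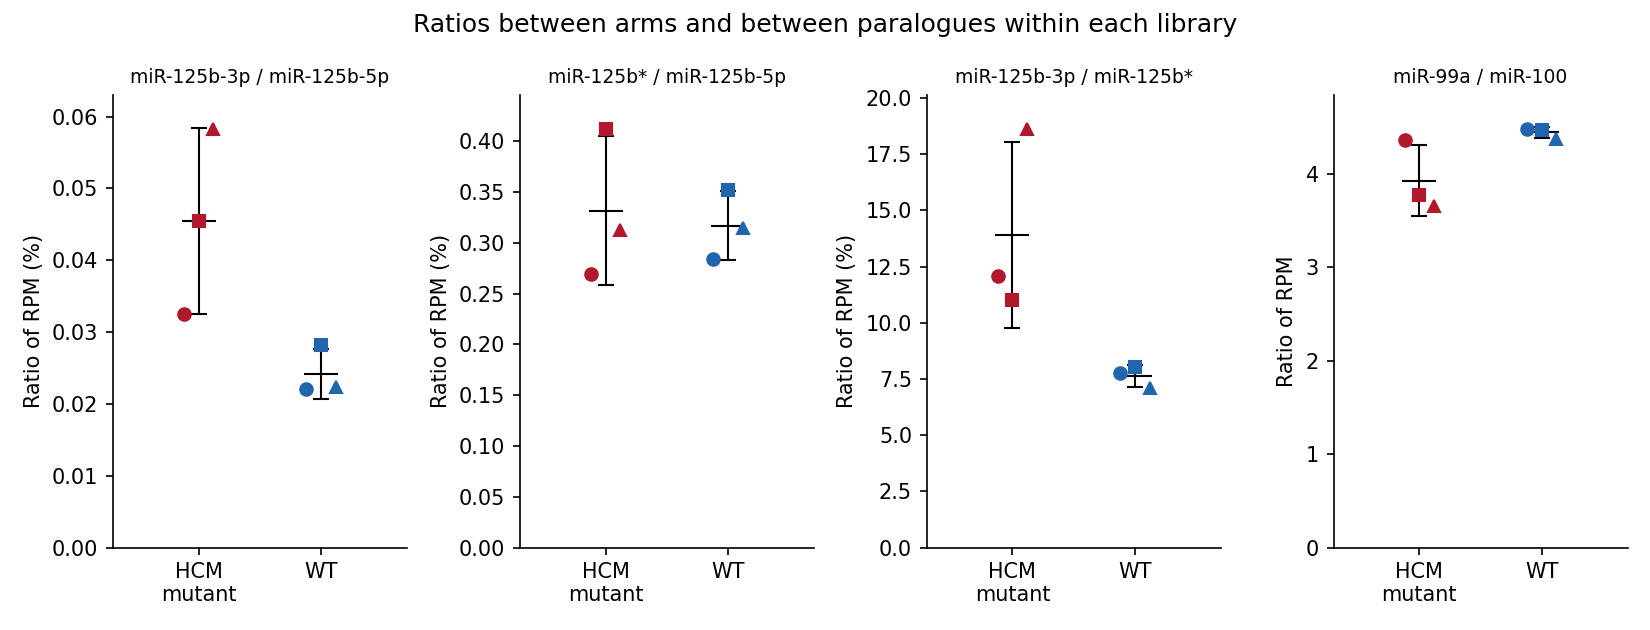
Ratios within each library (vertical axis, percent of RPM in the left 3 panels and ratio of RPM in the right one), HCM mutant (red) left of WT (blue), with the marker shape giving the replicate number and black bars the mean ± SD of 3 libraries. The ratios of miR-125b-3p to miR-125b-5p and to miR-125b* are higher in all 3 mutants, that of miR-125b* to miR-125b-5p overlaps, and that of miR-99a to miR-100 is lower in all 3 mutants.

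Among paralogues, the ratio of miR-99a to miR-100 was 4.36, 3.77 and 3.65 in the mutants and 4.49, 4.47 and 4.38 in WT. It was lower in every mutant, though mutant replicate 1 lay close to WT, and the difference was −0.18 on the log2 scale (exact permutation p = 0.1, the smallest possible; adjusted 0.333). The other paralogue ratios overlapped between the groups. miR-125a-5p amounted to 1.55% ± 0.102 of miR-125b-5p in the mutants and 1.41% ± 0.122 in WT (exact permutation p = 0.3, adjusted 0.571). miR-99b amounted to 0.347% ± 0.0356 of miR-99a in the mutants and 0.318% ± 0.0538 in WT (SD, n = 3; exact permutation p = 0.4, adjusted 0.571).

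Ratios between members of the same cluster overlapped between the groups in all 3 clusters. In the chromosome 9 cluster, miR-100 was 656, 426 and 311 times as abundant as miR-125b-3p in the mutants and 1040, 648 and 760 times in WT. Mutant replicate 1 and WT replicate 2 overlapped, and the log2 difference was −0.78 (exact permutation p = 0.2, adjusted 0.5). In the chromosome 16 cluster, miR-99a was 345, 177 and 211 times as abundant as miR-125b* in the mutants and 362, 232 and 236 times in WT (difference −0.20, exact permutation p = 0.5, adjusted 0.625). In the chromosome 17 cluster, miR-99b amounted to 20.6%, 15.9% and 15.4% of miR-125a-5p in the mutants and 18.2%, 21.8% and 17.7% in WT (difference −0.16, exact permutation p = 0.4, adjusted 0.571).

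The other products of the same clusters, the let-7 miRNAs that lie between the 2 families and the measured minor arms, did not pass: of the 4 tested, 0 passed by limma in either direction, 3 had differences above 0, and 1, miR-99b*, had an unadjusted p under 0.05. let-7c, whose sequence also occurs in Mirlet7c-2 on chromosome 15, stood at 7130, 5283 and 6426 RPM in the mutants and 6190, 6405 and 4907 RPM in WT (limma adjusted p = 0.808). let-7a, whose sequence also occurs in Mirlet7a-1 on chromosome 13, stood at 6156 ± 894 RPM in the mutants and 6557 ± 286 RPM in WT (limma adjusted p = 0.812), and let-7e, of the chromosome 17 cluster, at 214 ± 32.4 and 176 ± 27.4 RPM (limma adjusted p = 0.502).

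miR-99b*, the 3′ arm of Mir99b, stood at 23.7, 27.4 and 37.9 RPM in the mutants and 11.5, 23.9 and 16.5 RPM in WT. Mutant replicate 1 and WT replicate 2 overlapped narrowly, and the log2 difference of 0.77 ± 0.28 (95% interval 0.21 to 1.34) missed the threshold (limma adjusted p = 0.0823). It made up 14.0%, 19.3% and 20.7% of the reads of both Mir99b arms in the mutants and 9.70%, 14.5% and 15.5% in WT, and these shares overlapped. miR-125a-3p, below the level filter, stood at 8.20, 8.43 and 8.86 RPM in the mutants and 4.11, 6.99 and 3.83 RPM in WT, with every mutant above every WT library. In the fit without a filter its difference was 0.71 ± 0.36 (limma adjusted p = 0.343). As a share of the reads of both Mir125a arms, miR-125a-3p overlapped between the groups. It made up 1.15%, 1.15% and 0.931% in the mutants and 0.693%, 1.07% and 0.750% in WT. let-7c-1*, which marks the let-7c copy of the chromosome 16 cluster, stood at 11.2, 5.54 and 7.25 RPM in the mutants and 10.7, 9.41 and 6.89 RPM in WT, which overlapped.

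Other cell types contribute to whole-ventricle RNA. The 4 listed fibroblast miRNAs (miR-21, miR-199a-3p, miR-199a-5p and miR-214) summed to 3931, 6658 and 8512 RPM in the mutants and 1613, 3040 and 2551 RPM in WT; all 4 had differences above 0, 3 passed, and none was at 0 in any library. Mutant replicate 3 was the highest and mutant replicate 1 the lowest mutant, and WT replicate 2 the highest WT library, both in this sum and in miR-125b-3p. The same held for miR-125b-5p and miR-125a-5p, which did not pass, so this order does not single out miR-125b-3p. The part of fibroblast content in the miR-125b-3p difference was not tested. The 2 endothelial miRNAs (miR-126-3p and miR-126-5p) summed to 30476 to 37224 RPM in the mutants and 26942 to 38273 RPM in WT, the 2 smooth muscle miRNAs (miR-143 and miR-145) to 28277 to 34755 and 24019 to 33615 RPM, and the 7 blood and immune miRNAs to 4134 to 4799 and 3382 to 4598 RPM, and these sums overlapped. The blood and immune list held miR-142-3p, miR-142-5p, miR-144, miR-150, miR-223, miR-451 and miR-486. Of these, 3 of 7 had differences above 0 and 1 passed. The 1 was miR-142-3p, a miRNA of leukocytes, at 1775, 1574 and 1835 RPM in the mutants and 1014, 1203 and 977 RPM in WT (limma adjusted p = 0.0333). miR-142-5p stood at 34.0, 44.1 and 49.5 RPM in the mutants and 21.7, 23.7 and 29.3 RPM in WT, with every mutant above every WT library (limma adjusted p = 0.0747). miR-223 was also above 0 (log2 difference 0.55, limma adjusted p = 0.172). miR-144, miR-150, miR-451 and miR-486 had differences below 0. Among them miR-150 stood at 186, 106 and 106 RPM in the mutants and 186, 238 and 131 RPM in WT (log2 difference −0.48, limma adjusted p = 0.292). The part of leukocyte content in the miR-125b-3p difference was not tested. The 3 liver and neuron miRNAs (miR-122, miR-124 and miR-9) summed to 19.2 to 21.4 RPM in the mutants and 15.6 to 17.0 RPM in WT. In this sum every mutant lay above every WT library. Most of it was miR-9, at 15.7 of 19.2 RPM in mutant replicate 1. miR-9 stood at 15.7, 21.2 and 18.9 RPM in the mutants and 15.6, 14.5 and 14.7 RPM in WT (limma adjusted p = 0.539). Over the 6 libraries both miR-9 and miR-125b-3p averaged 16.8 RPM, and both had every mutant above every WT library.

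The miRNAs whose profiles over the 6 libraries were most like those of miR-99a, miR-125b-5p and miR-125b-3p were found by the root mean square difference of centred log2(RPM + 1) values, given as a description. Nearest to miR-99a was let-7c, at 0.072 log2 units, then let-7g at 0.092 and miR-24-2* at 0.10, where the median over all others was 0.30. Nearest to miR-125b-5p were miR-191 (0.091), miR-872 (0.099) and miR-1839-5p (0.10), with a median of 0.26. Nearest to miR-125b-3p were miR-497 (0.14), miR-147 (0.21) and miR-214 (0.24), with a median of 0.60. The difference between the groups is part of the profile matched, so that neighbours of miR-125b-3p share it by construction. Of these, miR-214 is in the fibroblast list, and miR-497 stood at 236 ± 77.0 RPM in the mutants and 116 ± 29.5 RPM in WT. By the same measure miR-125b-3p lay 0.47 from miR-125b-5p, 0.44 from miR-125b* and 0.53 from miR-100.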

How the data were processed

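Small RNA libraries of 6 left ventricles were compared. RNA from a miRNA isolation kit went into multiplexed miRNA libraries, per the labels' protocols; the sources used here do not give the aligner, counter, miRNA release or build. The deposited values are RPM: columns summed to 1000000 and 100% of values were whole multiples of 1 read (tolerance 0.02 reads), which gave back whole reads. All pairs of libraries differed beyond counting noise. Whether libraries of a group came from separate animals rests on the titles. The p-values weigh differences between the groups against variation between these samples.

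log2(RPM + 1) (which shrinks changes at low levels) was tested with limma 3.58.1 (R 4.3.3, trend, two-sided) where the mean reached 10 RPM (193 miRNAs), Benjamini-Hochberg over all of them, threshold 0.05. Ratios were tested on log2(RPM + 1), exactly over 20 assignments, with scipy 1.17.1. edgeR 4.0.16 and DESeq2 1.42.0 ran on recovered reads as alternatives. Other settings changed the trend, sample weights, scaling, pseudocount, filter, replicate block or left out 1 library. The fit was tested on simulated data. Wilson intervals (95%) cover counting error only, without molecular identifiers; a count of 0 allows 3 reads, 0.574 to 1.21 RPM. The miRNAs, partner lists, marker lists (general knowledge) and named miRNAs (the 7, their cluster partners, seed sharers, miR-10 paralogues, the 3 most alike) were chosen with earlier results of these data known. Sequences and positions are RefSeq's (GRCm38.p6), precursor spacing and host genes GENCODE M21 (GRCm38). Of 10 cluster partner names, 6 were in the table; the others were not analysed here.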

Additional observations from a re-analysis of the deposited data

How the results depend on the processing

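Against 10 calls among all tested miRNAs, sample weights gave 37 (34 higher, 3 lower), median-of-ratios scaling 5 (4 and 1), and leaving out a library 1 to 24 (limma), the lowest when WT replicate 3 was omitted; omitting WT replicate 1 gave 5, WT replicate 2 gave 22 and HCM mutant replicate 1 gave 24. Of the 7 miRNAs, 1 was called; 0 were called with median-of-ratios scaling, TMM, totals without the 5 most abundant miRNAs and no filter, though 1, 1, 1 and 2 had an unadjusted p under 0.05 there, and 0 with a mean of at least 100 RPM, which left miR-125b-3p untested. Leaving out a library gave 0 to 1, with 0 when HCM mutant replicate 3, WT replicate 1 or WT replicate 3 was omitted. The number with separate groups was 1, against 4, with median-of-ratios scaling. Scaling lowers each difference with the median; otherwise the cause was not tested. The sign of miR-99a turned with median-of-ratios scaling (−0.041) and DESeq2 (−0.049); the signs of the other 6 held in all settings that tested them. No miRNA of the 7 besides miR-125b-3p passed in any setting. With a library left out, the ratio differences lay between −0.12 and 0.18 for miR-125b*/miR-125b-5p, −0.15 and 0.082 for miR-99b/miR-100 and −0.48 and 0.0059 for miR-99a/miR-125b*. The other 7 ratios kept their sign (0.61 to 1.01 for miR-125b-3p/miR-125b-5p, 0.54 to 0.91 for miR-125b-3p/miR-125b*). With a pseudocount of 10 RPM the differences of miR-125b-3p/miR-125b-5p and miR-125b-3p/miR-125b* were smaller, at 0.41 and 0.39. The exact permutation p of miR-125b-3p/miR-125b* was then 0.2, against 0.1 with 1 RPM.

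The replicate numbers were not shown to pair the samples: same-numbered deviations correlated at 0.51, −0.07 and 0.18, and mutant replicate 2 correlated better with WT replicate 3 (0.40). With the replicate block limma called 17 miRNAs (16 higher, 1 lower) and edgeR 33 (23 and 10), in both with miR-125b-3p as the 1 call among the 7 (adjusted p = 0.00216 by limma). For the ratios the block leaves the difference as it is by construction, and the exact p, 0.1 for miR-125b-3p/miR-125b-5p, became 0.25, the smallest that 3 pairs allow. Depth limits miR-125b-3p most, at 31 to 91 reads per library.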

Other observations

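miR-10a and miR-10b, encoded in the Hox clusters, resemble the miR-99/100 family but have another seed. miR-10b stood at 138, 131 and 174 RPM in the mutants and 71.3, 120 and 85.8 RPM in WT. Every mutant lay above every WT library, and the log2 difference of 0.69 ± 0.25 did not pass (limma adjusted p = 0.0823). miR-10a stood at 322, 151 and 199 RPM in the mutants and 213, 226 and 185 RPM in WT, with the highest and the lowest value both among the mutants (limma adjusted p = 0.924).

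Outside the 2 families, 1 other row of the table had the miR-125 seed, miR-351, which lies on the X chromosome and has this sequence, with the seed in capitals: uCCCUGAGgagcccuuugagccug. It stood below the level filter, at 7.73, 6.02 and 5.64 RPM in the mutants and 3.56, 5.65 and 3.83 RPM in WT. Mutant replicate 3 lay just under WT replicate 2, and in the fit without a filter the log2 difference was 0.49 ± 0.36 (limma adjusted p = 0.573).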
